A study of Mus musculus with 147 samples.

Results

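The Dppa family was followed through the male germline of the mouse, from the embryo at embryonic day (E) 6.5 to the adult testis. Its members here were the 4 genes *Dppa2*, *Dppa3*, *Dppa4* and *Dppa5a*, chosen by name, with earlier results of these data known. All 4 had a row in the table of 31053 genes. The table holds counts of unique molecular identifiers (UMIs), short random tags that mark each captured mRNA molecule so that copies made by PCR are counted once. It was made by STRT-seq, a method that sequences the 3′ end of mRNA in single cells, at 28 time-points. The wild-type cells came from the offspring of C57BL/6 females and males with a pair of reporter transgenes, Blimp1-mVenus (*Prdm1*) and Stella-ECFP (*Dppa3*), together called BVSC. All groups used here were wild type. Cells of E6.5 to E9.5 and of replicates 1 and 2 of E10.5 carry no sex in the labels, and the other cells are labelled male. The paper states that males were chosen by PCR for *Sry* at E10.5 and E11.5. Pools of E6.5 to E9.5 may hold cells of both sexes. For replicates 1 and 2 of E10.5 the labels do not show the choice of males.

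At E6.5 and E7.5 the cells carry the labels EPIrandom or FACSrandom and were pooled by replicate, and at E7.5 also by label. From E8.5 to E13.5 the germ cells were sorted as BVSC double-positive, with an extra BV pool, positive for mVenus, at E11.5. From E14.5 to E18.5 the sort took cells positive for Stella-ECFP alone, although the gate is still called BVSC. Whole embryos were digested up to E10.5 and gonads from E11.5 on, and cells of the Negative gate were kept from E11.5 to E18.5. From postnatal day (PND) 0 to the adult, testicular cells of germ cell shape were picked without a reporter gate. Many cells of PND14 and PND30 also carry a label of DNA content, and the paper describes a sort by Hoechst stain for ploidy. The mix of cells in those pools depends in part on that sort, and its part in their levels was not tested. Before birth a replicate is a pool of embryos, and after birth it is 1 animal. The reporter that sets the positive gate is driven by *Dppa3* sequence, so levels of *Dppa3* before birth come from cells chosen with that reporter and those after birth do not. Whether the transgene carries the 3′ end of *Dppa3* is not given in the sources used here. The change of sort between E13.5 and E14.5 cannot be told apart from time.

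The Dppa (developmental pluripotency associated) genes were named for expression in pluripotent cells, and the name does not mark them as one sequence family. DPPA2 and DPPA4 are related chromatin proteins with a SAP domain that bind each other and are known to act upstream of genes of the early embryo. DPPA3, also called Stella or PGC7, is a classic marker of primordial germ cells (PGCs) and protects maternal DNA methylation in the zygote. DPPA5, also called ESG1, is an RNA-binding protein of the KH domain group. In the male germline, PGCs migrate to the gonads, proliferate, stop dividing as prospermatogonia before birth, and resume division after birth as spermatogonia, which then enter meiosis and form spermatids.

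In the mm10 annotation, *Dppa4* (chr16:48283733-48294237, plus strand) and *Dppa2* (chr16:48303908-48319723, plus strand) are neighbours with 9670 bases between them. *Dppa3* lies at chr6:122626410-122630272 on the plus strand and *Dppa5a* at chr9:78367052-78368177 on the minus strand. All 4 are protein-coding, and no annotated gene overlaps their transcripts. Counts were of reads at the 3′ end, so the last 300 bases of each transcript were compared with the transcripts of all other genes in windows of 50 bases. For *Dppa2*, *Dppa3* and the 2 longer transcripts of *Dppa4*, 0 of 251 windows were found in another gene. For the shortest transcript of *Dppa4*, 15 of 251 windows (5.98%) also occurred in *Gm14058* or *Gm5501*. For *Dppa5a*, 74 of 251 windows (29.5%) also occurred in *Gm6083* or *Pigp*, so some of its reads may have been lost or moved and its level is uncertain to that extent. Levels are therefore compared within a gene across samples and not between genes.

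A total of 11598 wild-type cells passed the filter of the study, with 10122 to 997915 UMIs a cell and a median of 284518. Counts were summed over the cells of 1 time-point, replicate and gate (a pool). A level is given in CPM, the UMIs of the gene for every 1000000 UMIs of the pool. The germ cell pools held 25 to 570 cells and 11391996 to 196887445 UMIs. All 96 cell barcodes recur in more than 1 library, 0 barcodes were used for more than 1 cell within a library, and 0 cells had identical counts. After birth a cell was kept as germ-marked when the summed level of 8 germ cell genes was at least 100 CPM and above that of 19 somatic genes. This held for 6548 of 7352 cells, with 256 cells within a factor of 2 of the cut. Some pools stood apart by their markers: replicate 1 of E8.5 had *Pou5f1* at 2.53 CPM, against 128.96 and 264 CPM in the others, and the summed level of visceral endoderm genes was 4047 CPM in it and 2860 CPM in replicate 3, against 269 CPM in replicate 2. Replicate 1 of PND2 gave 25 germ-marked cells of 110. Stage contrasts whose call changes without these pools are given with and without them.

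Each member had its own course, and all 4 were low at PND30. The highest mean level of *Dppa2* was at E11.5, of *Dppa5a* at E12.5, of *Dppa3* at E13.5 and of *Dppa4* at E15.5. The mean then stayed below 50% of its peak from E15.5 for *Dppa2* and *Dppa5a*, from E16.5 for *Dppa3* and from PND2 for *Dppa4*. It stayed below 10% of the peak from E17.5 for *Dppa3*, from PND4 for *Dppa5a*, from PND6 for *Dppa2* and from PND8 for *Dppa4*. Across the 26 time-points from E8.5 on, the means on the log2(CPM + 1) scale were most alike for *Dppa2* and *Dppa5a* (Pearson r = 0.92) and least alike for *Dppa3* and *Dppa4* (r = 0.59). These correlations describe means of the same pools and carry no test.

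**Figure D1:**
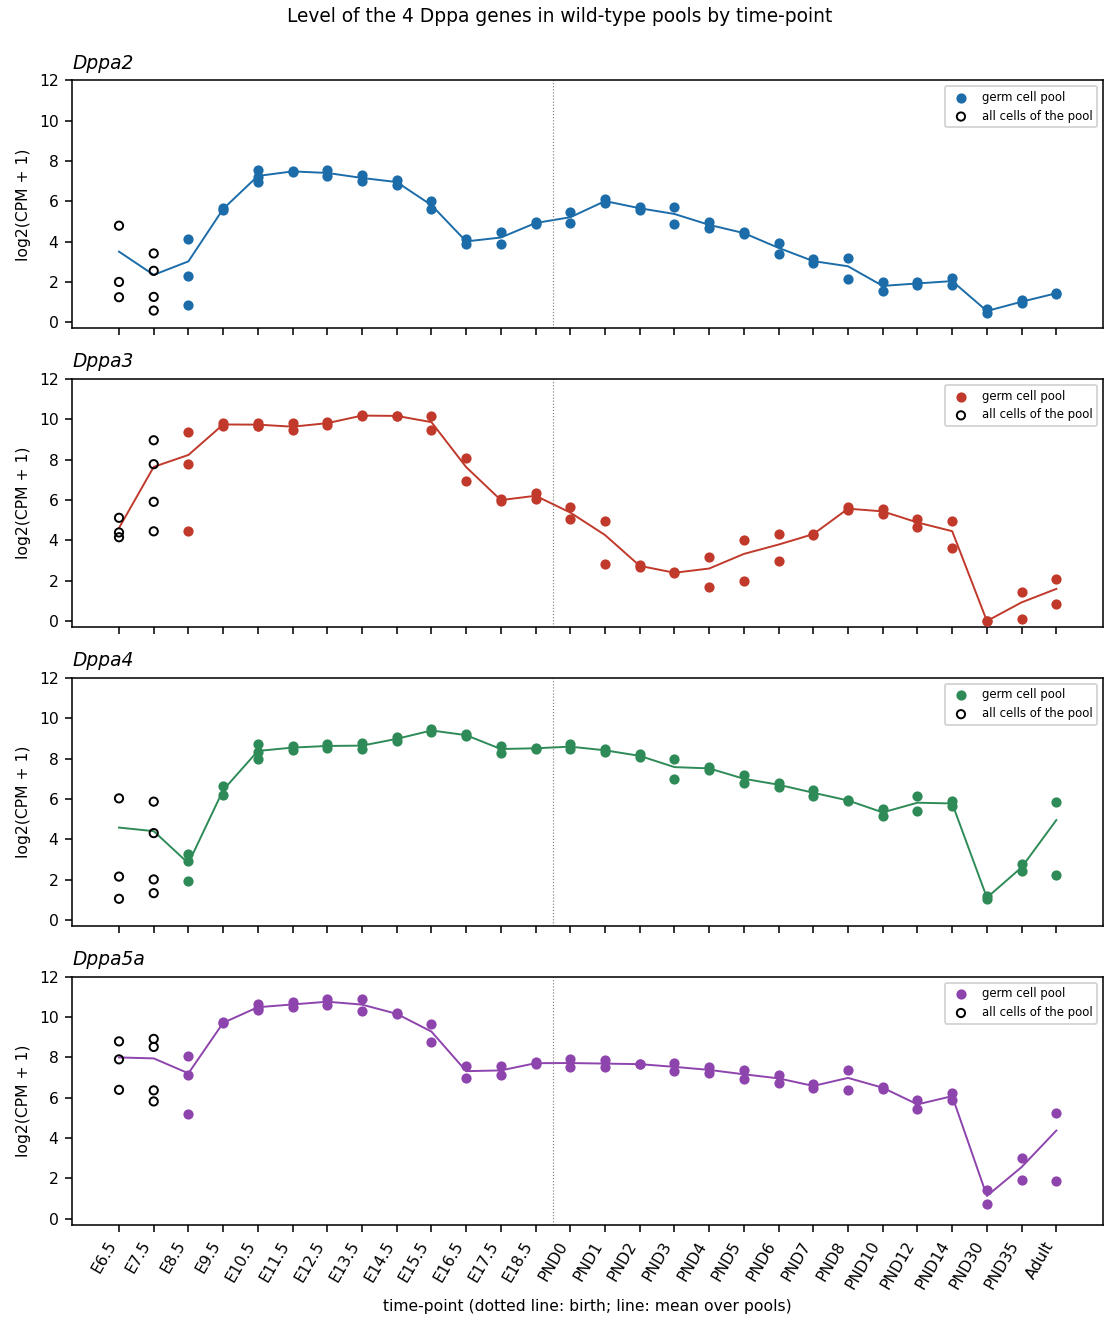
Level of each Dppa gene as log2(CPM + 1) (vertical axis) by time-point (horizontal axis). Points are pools, open points are pools of all cells at E6.5 and E7.5, lines join the means and the dotted line marks birth. *Dppa2* peaked at 178 CPM at E11.5 and *Dppa4* at 672 CPM at E15.5. *Dppa3* shows a second, lower maximum at PND8, within the range of Negative-gate pools in libraries of their own (1.51 to 72 CPM).

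*Dppa2* was nearly off in the E8.5 pools, at 3.97, 16.6 and 0.824 CPM, and reached 46.4 and 50.05 CPM at E9.5. The 3 pools of E10.5 gave 123.6, 185 and 147.2 CPM, all above those of E9.5. At the peak at E11.5 the pools gave 175 and 181 CPM (178 ± 4.69, SD, n = 2). The level was 111.8 and 134.2 CPM at E14.5, 47.6 and 62.7 CPM at E15.5, and 13.6 and 16.7 CPM at E16.5, with no overlap between these 3 time-points. A second, lower maximum followed around birth. The pools of E18.5 gave 28 and 30.8 CPM, above 13.7 and 21.2 CPM at E17.5, and those of PND1 gave 68.4 and 58.6 CPM, above 42.9 and 29.1 CPM at PND0. From there the mean declined to 20.5 CPM at PND5 and 7.20 CPM at PND7. At PND10 it was 2.50 ± 0.768 CPM, and at PND30 0.477 ± 0.166 CPM (SD, n = 2 each). Negative-gate pools in libraries of their own, at E13.5 to E16.5, held 0 to 2.14 CPM of *Dppa2*. Replicate 3 of E8.5, replicate 2 of PND10 and all pools from PND30 on lie within that range.

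*Dppa4*, the neighbour of *Dppa2*, came on at the same time-points and stayed on longer. It stood at 2.79, 8.59 and 6.68 CPM at E8.5, at 100 and 71.6 CPM at E9.5, and at 256, 318 and 423 CPM at E10.5. Unlike *Dppa2*, it was higher at E14.5 (532 and 475 CPM) than at E13.5 (437 and 361 CPM), and higher again at E15.5 (640 and 705 CPM). At E16.5, where *Dppa2* had dropped to 8.52% of its peak, *Dppa4* still stood at 591 and 553 CPM. The pools of E17.5 gave 313 and 396 CPM and those of PND0 354 and 416 CPM, so that the level on both sides of birth overlapped. The decline after birth was gradual, with means of 280 CPM at PND2, 190 CPM at PND3, 127.1 CPM at PND5 and 59.7 CPM at PND8. Between PND10 and PND14 the means lay between 39.3 and 55.3 CPM, and at PND30 the pools gave 1.03 and 1.29 CPM. Negative-gate pools in libraries of their own, at E13.5 to E16.5, held 1.45 to 71.9 CPM of *Dppa4*. The pools of E8.5, replicate 2 of E9.5 and of PND7, and all pools from PND8 on lie within that range or below it. Their levels alone do not show expression.

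*Dppa3* was already high in most pools at E8.5 and E9.5. The 3 pools of E8.5 gave 21, 665 and 218 CPM, with the low value in the pool low in *Pou5f1* (summed level of early germ cell genes 36.1 CPM, against 654 CPM in replicate 2). From E9.5 to E12.5 the pools lay between 704 and 950 CPM with no rise or decline between consecutive time-points that separated the pools. The pools of E13.5 gave 1160 and 1175 CPM (1168 ± 10.4, SD, n = 2) and those of E14.5 1167 and 1144 CPM. At E15.5 the 2 pools differed, at 714 and 1151 CPM, and at E16.5 they gave 124.6 and 272 CPM. The level then went from 60.1 and 66 CPM at E17.5 to 4.40 and 4.16 CPM at PND3. After that low point a second maximum followed. *Dppa3* stood at 18.6 and 19.2 CPM at PND7, at 44.7 and 48.8 CPM at PND8, and at 46.5 and 38.6 CPM at PND10. At PND14 the pools gave 30.6 and 11.47 CPM. Negative-gate pools in libraries of their own, at E13.5 to E16.5, held 1.51 to 72 CPM of *Dppa3*. The second maximum lies within that range, so its levels alone do not show expression. All other pools from E17.5 on lie within the range or below it as well, apart from replicate 1 of E18.5 (80.5 CPM). At PND30 *Dppa3* was the member closest to 0, with 1 UMI in 570 cells of replicate 1 and 1 UMI in 464 cells of replicate 2.

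*Dppa5a* stood at 35.2, 269 and 137.3 CPM at E8.5, at 828 and 852 CPM at E9.5, and at 1301, 1388 and 1623 CPM at E10.5. The peak at E12.5 was 1919 and 1552 CPM (1736 ± 260, SD, n = 2), which overlapped the pools of E11.5 (1468 and 1692 CPM) and E13.5 (1251 and 1892 CPM). From E14.5 the pools separated at each step, with 1129 and 1159 CPM at E14.5, 438 and 804 CPM at E15.5, and 124.8 and 193 CPM at E16.5. Unlike *Dppa3*, the level then held. The means stayed between 159 and 210 CPM from E16.5 to PND2 and declined to 95.2 CPM at PND7. At PND8 the 2 pools differed, at 168 and 83.8 CPM. The mean was 66.7 CPM at PND14 and 1.19 CPM at PND30. Negative-gate pools in libraries of their own, at E13.5 to E16.5, held 1.73 to 90.9 CPM of *Dppa5a*. Replicate 1 of E8.5 and PND10, replicate 2 of PND7 and PND8, and all pools from PND12 on lie within that range or below it. Their levels alone do not show expression.

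When the 28 time-points were ranked by mean level, most neighbours in the order could not be separated. The pools of 22 of 27 neighbouring pairs overlapped for *Dppa2*, 21 for *Dppa3*, 19 for *Dppa4* and 19 for *Dppa5a*. In order of time, the pools lay fully above those of the time-point before in 6 steps for *Dppa2* and 5 for each of the others. They lay fully below it in 8 steps for *Dppa2*, 8 for *Dppa3*, 9 for *Dppa4* and 6 for *Dppa5a*. Such totals over all steps were not counted for all genes. With so few pools a time-point, they are not read as a trait of the members. The step from E8.5 to E9.5 separated the pools upwards for all 4 members, while 16.4% of the 14486 genes with a mean of at least 1 CPM at either time-point did so. Replicate 2 of E8.5, the pool low in visceral endoderm genes, was also below both pools of E9.5 for each member. The step from E15.5 to E16.5 separated them downwards for all 4, against 21.3% of 18730 genes. The means at E16.5 were 0.275 of those at E15.5 for *Dppa2*, 0.213 for *Dppa3*, 0.256 for *Dppa5a* and 0.851 for *Dppa4*.

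To ask which of these changes exceeded the spread between replicates, the time-points were grouped into 8 stages and 7 consecutive contrasts were tested in 1 fit of all 54 germ cell pools, with edgeR's quasi-likelihood test and Benjamini-Hochberg adjustment over 26606 genes. A fold change compares the mean of the time-points of the later stage with that of the earlier stage on the log2 scale.

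Between E8.5 to E10.5 and E11.5 to E13.5, 3 of the 4 members rose, while 7.54% of all genes were called higher and 7.62% lower. *Dppa4* rose 7.29-fold (log2 2.87 ± 0.280, SE, adjusted p = 4.14e-09, edgeR), *Dppa2* rose 4.49-fold (log2 2.17 ± 0.327, adjusted p = 1.24e-05, edgeR) and *Dppa5a* rose 3.03-fold (log2 1.598 ± 0.334, adjusted p = 8.82e-04, edgeR). *Dppa3*, which most pools already held at a high level by E9.5, had a log2 fold change of 0.70 ± 0.473 (adjusted p = 0.416, edgeR). The E8.5 pools weigh on this contrast. Without them the log2 fold change of *Dppa5a* was 0.57 (adjusted p = 0.333, edgeR) and that of *Dppa2* 0.93 ± 0.219 (adjusted p = 0.00465, edgeR), and *Dppa4* stayed called at 1.21 ± 0.297 (adjusted p = 0.00653, edgeR).

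Between E11.5 to E13.5 and E14.5 to E16.5, when male PGCs stop dividing, the members parted. *Dppa2* fell (log2 -2.12 ± 0.354, adjusted p = 1.25e-05, edgeR) and *Dppa5a* fell (log2 -2.08 ± 0.367, adjusted p = 2.77e-05, edgeR), while 22.1% of genes were called higher and 16.2% lower. *Dppa3* gave -0.98 ± 0.509 (adjusted p = 0.136, edgeR) and *Dppa4* 0.25 ± 0.283 (adjusted p = 0.630, edgeR). The median log2 fold change of all genes in this contrast was 0.52, so *Dppa4* lay 0.28 below it. With the RLE size factors the median of all genes was 0.73, and 67.7% of calls were higher in place of 57.7%.

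Between E14.5 to E16.5 and E17.5 to E18.5 all 4 members fell, while 18.2% of genes were called higher and 14.7% lower. *Dppa3* fell most, from a mean of 762 to 68.2 CPM (log2 -3.57 ± 0.662, adjusted p = 1.50e-04, edgeR). *Dppa5a* changed by -1.82 ± 0.423 (adjusted p = 0.00154, edgeR), *Dppa2* by -1.48 ± 0.401 (adjusted p = 0.00578, edgeR) and *Dppa4* by -1.11 ± 0.328 (adjusted p = 0.0103, edgeR). For *Dppa2* and *Dppa5a* the drop lay within the earlier stage, since the pools of E16.5 (13.6 and 16.7 CPM, and 124.8 and 193 CPM) overlapped those of E17.5 and lay below those of E18.5. The call of *Dppa4* was lost with RLE size factors (-0.77, adjusted p = 0.0540, edgeR), under which the median of all genes was 0.68 in place of 0.36 and 76.3% of calls were higher in place of 55.3%. Without the E17.5 pools, where 65.3% of the cells of replicate 1 were germ-marked, the adjusted p was 0.113 for *Dppa2* and 0.0610 for *Dppa4* (edgeR).

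From E17.5 to E18.5 to PND0 to PND2, 5.35% of genes were called higher and 0.985% lower. *Dppa3* was the 1 member called, with a fall of 1.95 on the log2 scale (SE 0.565, adjusted p = 0.0322, edgeR), on the boundary between sorted and picked cells. That call was lost without the PND2 pool of replicate 1 (adjusted p = 0.0744, edgeR) and without the E17.5 pools (adjusted p = 0.113, edgeR). The means of *Dppa3*, 68.2 CPM before and 21.6 CPM after, both lie within the 1.51 to 72 CPM of Negative-gate pools in libraries of their own. *Dppa2* gave 1.24 ± 0.397 (adjusted p = 0.0554, edgeR), with a mean of 23.4 CPM before and 49.7 CPM after, and passed the threshold without the E8.5 pools (adjusted p = 9.10e-04, edgeR). *Dppa5a* gave 0.30 (adjusted p = 0.751, edgeR) and *Dppa4* 0.02 (adjusted p = 1.00, edgeR), the latter at -0.16 with RLE size factors. The share of calls that were higher was 84.5%, and 62.5% with RLE, which set the median of all genes at -0.17.

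From PND0 to PND2 to PND3 to PND7, when germ cells resume division, 16.3% of genes were called higher and 24.3% lower. *Dppa2* (log2 -1.05 ± 0.299, adjusted p = 0.00553, edgeR) and *Dppa4* (log2 -0.999 ± 0.248, adjusted p = 0.00182, edgeR) fell by nearly the same factor, 2.07 and 2.00. *Dppa3* gave -0.53 (adjusted p = 0.402, edgeR) and *Dppa5a* -0.20 (adjusted p = 0.713, edgeR). The median of all genes was -0.43, and -0.70 with RLE size factors, under which 23.3% of calls were higher in place of 40.1%.

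From PND3 to PND7 to PND8 to PND14 the 4 members moved in opposite directions. *Dppa3* rose 3.75-fold, from a mean of 10.1 to 34.8 CPM (log2 1.91 ± 0.423, adjusted p = 0.00138, edgeR), while 12.9% of genes were called higher. Both means lie within the 1.51 to 72 CPM of Negative-gate pools in libraries of their own. *Dppa2* fell 5.45-fold (log2 -2.45 ± 0.305, adjusted p = 8.65e-07, edgeR) and *Dppa4* fell 2.53-fold (log2 -1.34 ± 0.241, adjusted p = 1.30e-04, edgeR), while 7.03% of genes were called lower. *Dppa5a* gave -0.84 ± 0.295 (adjusted p = 0.0398, edgeR), a call that was lost when all picked cells were used in place of the germ-marked ones (-0.61, adjusted p = 0.187, edgeR). The later means of *Dppa4* (52.1 CPM) and *Dppa5a* (83 CPM) also lie within the ranges of those Negative-gate pools. These ranges were 1.45 to 71.9 and 1.73 to 90.9 CPM.

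From PND8 to PND14 to PND30 to adult all 4 fell, as did 27.9% of all genes, while 40% rose. *Dppa3* changed by -6.61 ± 0.698 (adjusted p = 1.05e-09, edgeR), *Dppa5a* by -3.58 ± 0.383 (adjusted p = 1.39e-09, edgeR), *Dppa4* by -2.76 ± 0.295 (adjusted p = 1.33e-09, edgeR) and *Dppa2* by -1.31 ± 0.336 (adjusted p = 9.31e-04, edgeR). Without the adult pool of replicate 1, described further on, *Dppa4* changed by -3.51 and *Dppa5a* by -4.29. For *Dppa3*, *Dppa4* and *Dppa5a* the means of both stages do not exceed the Negative-gate ranges given with their levels. The later mean of *Dppa2* (1.08 CPM) lies within its range. The median of all genes was 0.42, and 0.72 with RLE size factors.

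**Figure D2:**
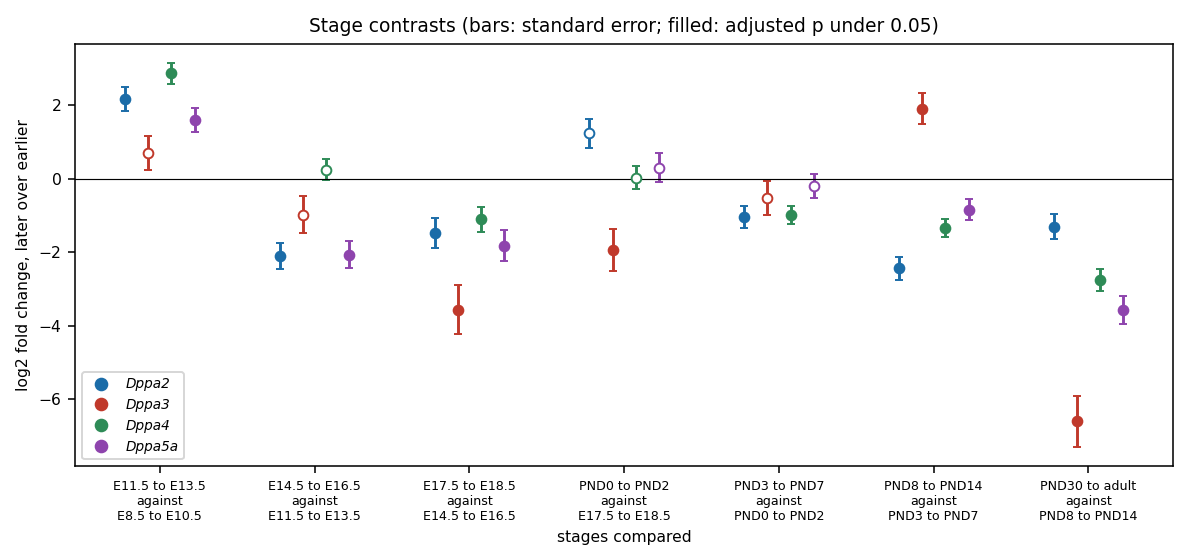
Log2 fold change (vertical axis, later over earlier stage) of each Dppa gene in the 7 consecutive stage contrasts (horizontal axis), with bars of 1 standard error and filled points where the adjusted p was under 0.05. All 4 genes are below 0 and filled in the third and the last contrast, and in the sixth *Dppa3* (1.91) is above 0 while the other members are below.

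The decline between E14.5 and E16.5 was also seen in the spread over single cells, where a pool's level can be divided into the share of cells with a UMI and the level per cell. In replicate 1, the median cell held *Dppa3* at 1181 CPM at E14.5, 708 CPM at E15.5 and 86.9 CPM at E16.5. In replicate 2, the same medians were 1161, 1274 and 169 CPM. At E15.5 the 10th percentile of replicate 1 was 259 CPM and that of replicate 2 was 770 CPM, so the pools differed in most of their cells. *Dppa5a* gave medians of 353 and 812 CPM at E15.5 and 100 and 137.9 CPM at E16.5. For both genes replicate 1 stood lower than replicate 2 in both time-points. *Dppa4* stayed high in nearly all cells, with a 10th percentile of 514 and 525 CPM at E15.5 and 400 and 385 CPM at E16.5. *Dppa2* had medians of 22 and 34.9 CPM at E15.5 and of 0 in both pools of E16.5. Its 90th percentile at E16.5 was 46.1 and 36.6 CPM, and 42 of 95 and 42 of 96 cells held a UMI of it. Across the cells of a pool at E15.5, the levels of *Dppa3* and *Dppa5a* went together (Pearson r = 0.70 over 93 cells and 0.83 over 94 cells on the log2 scale). Those of *Dppa2* and *Dppa4* did not (r = -0.21 and -0.16). The points share library and depth, and the values are a description.

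**Figure D3:**
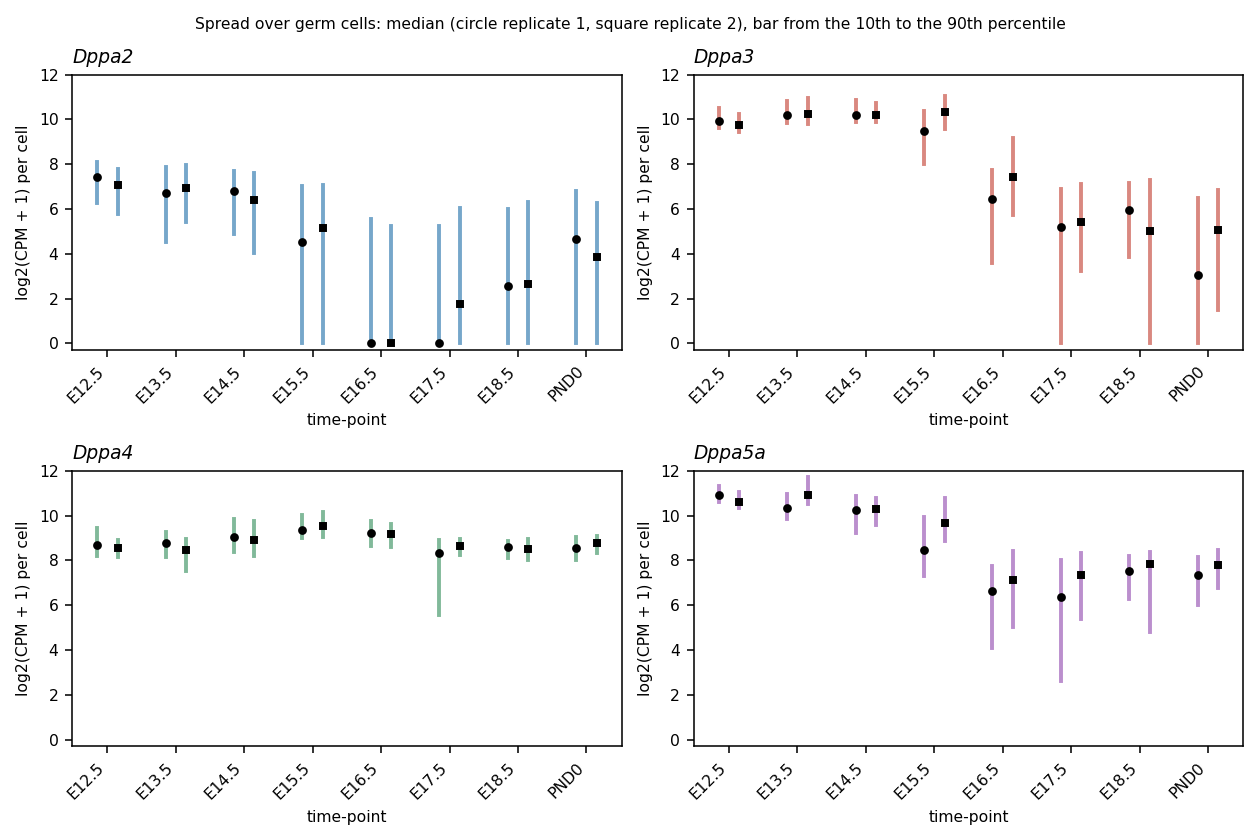
Spread of log2(CPM + 1) over germ cells (vertical axis) by time-point from E12.5 to PND0 (horizontal axis). Circles (replicate 1) and squares (replicate 2) are medians over cells and bars run from the 10th to the 90th percentile. The bars of *Dppa3* and *Dppa5a* drop between E14.5 and E16.5, those of *Dppa4* stay high, and the medians of *Dppa2* are at 0 at E16.5.

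Shares of cells with at least 1 UMI were compared after each cell was thinned to 50000 UMIs, since depth differed between time-points. *Dppa4* was found in at least 97.6% of thinned cells in every pool from E10.5 to PND2. *Dppa3* was found in at least 99.9% from E9.5 to E15.5, then in 59.5% and 76.8% at E17.5, in 4.93% and 6.84% at PND4, and in 70.9% and 52.9% at PND8. *Dppa2* was found in 95.6% and 99.2% at E11.5, in 25.2% and 30.3% at E16.5, and in 76.8% and 66.4% at PND1. Without thinning, the share for *Dppa2* at E16.5 was 44.2% and 43.8%. In cells of the Negative gate with libraries of their own, which should lack these genes, the thinned share ran from 0 to 6.04% for *Dppa2*, from 6.19% to 92.3% for *Dppa3*, from 2.64% to 74.2% for *Dppa4* and from 8.59% to 94% for *Dppa5a*. The median depth of those pools was 139203 to 246818 UMIs a cell. Shares within or below these ranges are not read as expression, nor a difference between them as a change. They include those of *Dppa3* in every pool from E17.5 on, PND8 among them, those of *Dppa4* from PND10 on, of *Dppa5a* from PND10 on and of *Dppa2* from PND30 on (1.72% to 4.82%). Some earlier pools lie within them too. Examples are *Dppa3* (87.4%) and *Dppa5a* (90.2%) in replicate 1 of E16.5, and *Dppa5a* at PND7 (87.9% and 87.2%). Replicate 2 gave *Dppa4* at 66.1% at E9.5 and 73% at PND8, and *Dppa2* at 5.21% at PND10.

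**Figure D4:**
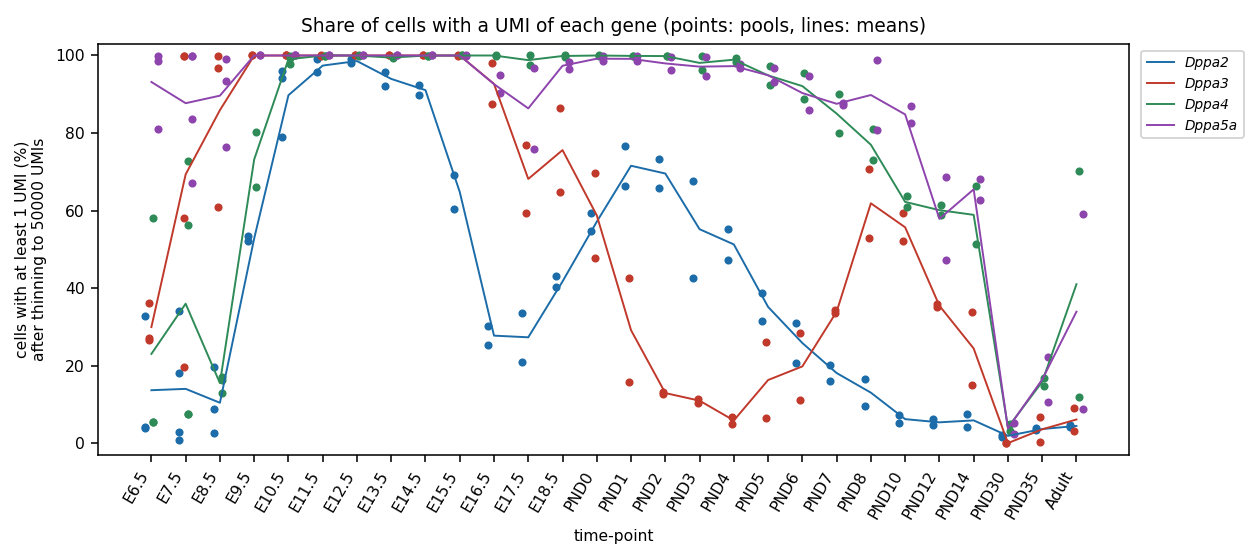
Share of cells with at least 1 UMI of each Dppa gene after thinning to 50000 UMIs a cell, in percent (vertical axis), by time-point (horizontal axis). Points are pools and lines are means. All 4 genes lie at 89.9% or above at E11.5 to E14.5, *Dppa2* drops first, the points of *Dppa3* from E17.5 on lie within the range of Negative-gate cells (6.19% to 92.3%) or below it, and all 4 are at 5.24% or below at PND30.

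The combination of members found in the same thinned cell was also counted. All 4 were found together in 50.5% and 41.3% of cells at E9.5, in 94.4% and 100% at E11.5, in 57.1% and 66.7% at E15.5, and in 16.7% and 28.9% at E16.5. At E16.5 the most frequent combination was *Dppa3*, *Dppa4* and *Dppa5a* without *Dppa2*, in 66.7% and 62.2% of cells. At PND1 it was *Dppa2*, *Dppa4* and *Dppa5a* without *Dppa3*, in 63% and 42.1%. From PND5 to PND7 it was *Dppa4* with *Dppa5a* alone, in 35.2% to 52.8% of cells, and at PND8 and PND10 it was these with *Dppa3*, in 31.8% to 45.8%. Shares of *Dppa3* alone from E17.5 on lie within the range of the Negative gate or below it. The same holds for *Dppa4* in replicate 2 of E9.5, and for *Dppa3* and *Dppa5a* in replicate 1 of E16.5. It also holds for *Dppa5a* in replicate 1 of PND5 (93.1%) and of PND6 (85.9%) and in both pools of PND7. Combinations with such a member describe detection and are not read as joint expression. At PND30, 92.9% and 88.2% of cells held none of the 4.

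To see how far the members mark germ cells, pools of the positive and the Negative gate of the same digest were compared at E11.5 to E18.5, in 32 pools with time-point and replicate as a block. *Dppa2*, *Dppa4* and *Dppa5a* were all higher in the positive gate, while 34.5% of 15243 genes were called higher and 26.5% lower. *Dppa2* was 5.50 ± 0.556 higher on the log2 scale (adjusted p = 7.98e-08, edgeR), *Dppa4* 4.07 ± 0.445 (adjusted p = 2.14e-07, edgeR) and *Dppa5a* 3.79 ± 0.513 (adjusted p = 2.97e-06, edgeR). *Dppa3* is described without a test, because its own sequence drives the reporter of the gate. Its positive pools held 60.1 to 1175 CPM and its negative pools 1.51 to 287 CPM, and in each of the 16 pairs the positive pool was higher.

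The size of the difference went with the way the libraries were made. In 9 pairs the cells of both gates shared a library, and in 7 the negative cells had a library of their own. In shared libraries the negative pool held a median of 3.66% of the positive level for *Dppa2*, 9.55% for *Dppa4*, 13.8% for *Dppa3* and 26.7% for *Dppa5a*. In libraries of their own the medians were 0.449%, 1.41%, 1.67% and 2.09% in the same order. *Ddx4* and *Dazl*, RNA-binding proteins of germ cells, behaved alike, at 8.30% and 8.31% in shared libraries and 3.29% and 2.45% in separate ones. The log2 difference of *Dppa5a* was 5.50 in pairs with separate libraries and 2.43 in shared ones. For *Dppa2* these values were 7.21 and 4.44, and for *Dppa4* 5.56 and 3.07, all called by edgeR. The part of the library layout in these levels was not tested, since it goes with time-point: the pairs of E11.5, E12.5, E17.5 and E18.5 and replicate 1 of E13.5 shared a library, and replicate 2 of E13.5 and the pairs of E14.5 to E16.5 did not.

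*Dppa2* was at 0 in 3 negative pools, with 0 of 47 and 0 of 45 cells at E15.5 and 0 of 24 cells at E18.5. With so few cells, the 2 pools of E15.5 allow a share of cells with a UMI of up to 6.38% and 6.67%, which is no limit on the share that express the gene. The negative pool of E16.5 replicate 1 was the highest among separate libraries, at 15.8% of the positive level for *Dppa2* and 12.2% for *Dppa4*, and *Ddx4* stood at 12.8% there. Within the positive gate at E11.5, the 32 BV cells of replicate 1 held *Dppa2* at 196 CPM, *Dppa3* at 654 CPM, *Dppa4* at 315 CPM and *Dppa5a* at 1349 CPM. The whole positive pool held 175, 704, 346 and 1468 CPM in the same order. Of the 32 BV cells 0 were germ-marked, and their 19 somatic genes summed to 1224 CPM, against 62.5 CPM in the BVSC cells.

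**Figure D5:**
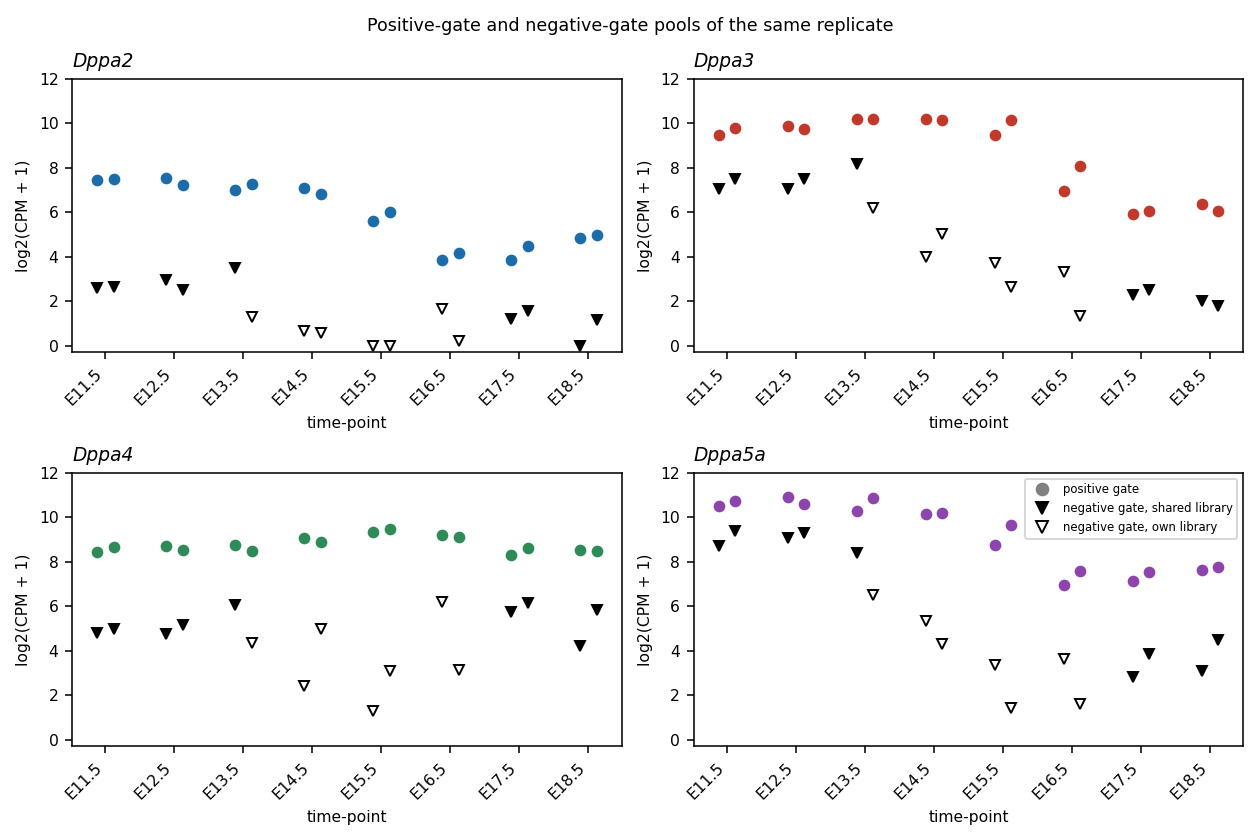
Level as log2(CPM + 1) (vertical axis) of each Dppa gene in positive-gate pools (circles) and Negative-gate pools (triangles) of the same replicate, by time-point (horizontal axis). Filled triangles had a library shared with positive cells and open ones a library of their own. Circles lie above triangles in every pair, and the filled triangles of *Dppa5a* at E11.5 to E13.5 (334 to 664 CPM) lie nearest to the circles.

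At E13.5 to E16.5 the gonads were cut into a proximal, a central and a distal part relative to the mesonephros, the embryonic kidney beside the gonad. The 8 distal and 8 proximal pools, of 30 to 32 cells each, were compared in a fit that also held the 8 central pools, with time-point and replicate as a block. No member passed the test, and 0 of 16091 genes were called higher (0%) or lower (0%) by edgeR, although 589 genes had an unadjusted p under 0.05 and DESeq2 called 12. The log2 difference was 0.05 ± 0.176 (SE) for *Dppa2*, 0.14 ± 0.0988 for *Dppa3*, 0.12 ± 0.0538 for *Dppa4* and 0.11 ± 0.0910 for *Dppa5a* (adjusted p = 0.999 each, edgeR). At E16.5 the replicates disagreed in sign. *Dppa3* was 168 CPM distal and 86.5 CPM proximal in replicate 1, and 235 CPM distal and 337 CPM proximal in replicate 2. *Dppa2* was 24 and 13.9 CPM in replicate 1 and 12.1 and 18.4 CPM in replicate 2. At E14.5 the distal pools held more *Dppa4* in both replicates, 581 against 491 CPM and 510 against 443 CPM.

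Before the germ cells could be sorted, the members differed sharply between collections. At E6.5, replicate 1 held *Dppa5a* at 443 CPM, *Dppa4* at 64.3 CPM and *Dppa2* at 26.7 CPM. Replicates 2 and 3 held *Dppa5a* at 83.1 and 239 CPM, *Dppa4* at 3.45 and 1.07 CPM and *Dppa2* at 3.01 and 1.37 CPM. The mesoderm gene *T* was at 10.9 CPM in replicate 1 and at 309 and 297 CPM in the others. *Dppa3* was 16.9, 33.9 and 20.1 CPM in the same order. At E7.5 it was 20.9 and 59.4 CPM in replicates 1 and 2 and 219 and 500 CPM in replicates 3 and 4, where the summed level of early germ cell genes was 201 and 574 CPM. Libraries of 1 replicate also differed. In the FACSrandom cells of replicate 2, 1 library of 39 cells held 317 CPM and the others 15.7 and 29.4 CPM, and the 2 libraries of replicate 3 held 137.04 and 312 CPM. The library with 137.04 CPM also held all cells of replicate 4. In replicate 3 the visceral endoderm genes summed to 2515 CPM and the somatic genes to 1512 CPM. Cells with at least 200 CPM of *Dppa3* made up 46 of 95 and 36 of 47 cells in replicates 3 and 4. They were 10 of 292 and 5 of 184 cells in the EPIrandom and FACSrandom cells of replicate 1, and 2 of 48 and 20 of 229 in those of replicate 2. At least 200 CPM of *Dppa5a* was also found in 46 of these 46 cells in replicate 3 and in 33 of 36 in replicate 4, but in 1 of 10, 1 of 5, 0 of 2 and 7 of 20 in the pools of replicates 1 and 2.

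After birth the level could be set against DNA content at PND14 and PND30, over all picked cells and not the germ-marked ones alone. At PND14, diploid (2N) cells held *Dppa2* at 1.22 and 3.26 CPM in replicates 1 and 2, and the tetraploid (4N) cells of replicate 1 held 5.65 CPM. For *Dppa3* the 2N cells gave 30.2 and 11.48 CPM and the 4N cells 24.6 CPM, and for *Dppa4* 47.7 and 74.5 CPM and 40.5 CPM. For *Dppa3* and *Dppa4* the 2N cells of the 2 animals lay further apart than the 2N and 4N cells of replicate 1. Apart from the 74.5 CPM of *Dppa4*, these levels of *Dppa3* and *Dppa4* lie within the ranges of Negative-gate pools in libraries of their own. At PND30, haploid (1N), 2N and 4N pools all lay between 0.376 and 0.768 CPM for *Dppa2*, between 0.798 and 1.78 CPM for *Dppa4* and between 0.245 and 1.20 CPM for *Dppa5a*. *Dppa3* gave 0 UMIs in 4 of the 6 pools, for example in 189 diploid cells of replicate 1, which allows a share of cells with a UMI of up to 1.59%.

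The 2 adult animals differed in *Dppa4*, at 56.4 and 3.63 CPM, and in *Dppa5a*, at 36.9 and 2.63 CPM. The difference was present in each library: the 4 libraries of replicate 1 held 38.5 to 57.8 CPM of *Dppa4* over all picked cells and the 5 of replicate 2 held 2.52 to 6.19 CPM. *Dppa3* stood at 3.28 and 0.793 CPM and *Dppa2* at 1.69 and 1.75 CPM. In both animals *Dppa4* and *Dppa5a* lay within the ranges of Negative-gate pools in libraries of their own (1.45 to 71.9 and 1.73 to 90.9 CPM). These levels alone do not show expression. Over all picked cells of the same animals *Prm1*, a spermatid protamine, stood at 56.8 and 429 CPM, *Uchl1*, an enzyme of spermatogonia named here after its values were seen, at 272.5 and 25.4 CPM, and the Sertoli cell gene *Clu* at 293 and 6.48 CPM. The part of cell composition in the adult levels was not tested. At PND35 *Dppa4* was 4.42 and 5.79 CPM and *Dppa5a* 2.83 and 7.01 CPM, both above their pools of PND30.

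Cells picked after birth that were not germ-marked held less of the members in most pools. At PND2 replicate 1, the 85 such cells held *Dppa4* at 30.2 CPM, against 295 CPM in its germ-marked cells, and *Dppa3* at 0 UMIs. At PND8 replicate 1, however, 27 such cells held *Dppa3* at 50.2 CPM and *Dppa5a* at 177 CPM, against 44.7 and 168 CPM in the germ-marked cells, and *Dazl* stood at 463 CPM in them.

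The members were read beside other genes of their surroundings. Of 8 pluripotency and early germ cell factors, 5 fell from E11.5 to E13.5 to E14.5 to E16.5 (16.2% of all genes fell), 5 fell at the next contrast (14.7% of all genes) and 0 rose in either. *Nanog*, the homeobox factor of naive pluripotency, had stage means of 171, 44.9 and 6.89 CPM over these 3 stages, and *Sox2* of 157, 39.7 and 5.35 CPM. In the median the list changed by -2.11 at the first of these contrasts, where the median of all genes was 0.52. In the last contrast 6 of 8 fell (27.9% of all genes), and in the gate comparison all 8 were higher in the positive gate (34.5% of all genes). *Dppa2* and *Dppa5a* fell at the first of these contrasts with them, and *Dppa4* did not pass the test there.

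Of 11 genes of DNA methylation, 3 rose and 4 fell from E11.5 to E13.5 to E14.5 to E16.5, where 22.1% of all genes rose and 16.2% fell. *Dnmt3l*, the cofactor of de novo methylation, had stage means of 0 and then 231.5 CPM. *Tet1*, a dioxygenase that oxidises methylcytosine, had stage means of 327, 123.2 and 23.4 CPM and was lower at both contrasts (log2 -2.31 and -2.26, edgeR). *Uhrf1*, which brings DNMT1 to replicated DNA, rose from a stage mean of 19.6 CPM to 110 CPM across birth (log2 2.31 ± 0.408, adjusted p = 4.10e-04, edgeR), while 5.35% of genes were called higher.

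Of 8 relatives and partners of the KH group, 5 fell and 1 rose from E14.5 to E16.5 to E17.5 to E18.5, where 14.7% of all genes fell and 18.2% rose. Of the 7 tested between the gates 6 were higher in the positive gate, as were 34.5% of all genes. *Khdc3* and *Ooep*, KH proteins known from the oocyte, had stage means of 0.661 and 31.8 CPM at E8.5 to E10.5. They rose to 52.8 and 121.4 CPM at E11.5 to E13.5 (log2 6.28 and 2.40). Of the 8 genes, 2 were called higher at this contrast and 6 were not called, beside 7.54% of all genes called higher. *Dppa5a* was called higher there as well, a call that was lost without the E8.5 pools. The 14 early embryo genes linked to *Dppa2* and *Dppa4*, among them *Duxf3*, *Zfp352* and the Zscan4 and Usp17l clusters, stayed near 0. Of the 13 in the table, 0 reached a mean of 20 CPM at any time-point and 7 reached 1 CPM, and the highest was *Duxf3* at 5.66 CPM at PND0. Among the 11 tested, 5 rose at E14.5 to E16.5, 3 rose at E17.5 to E18.5, and 1, 3 and 3 fell in the next 3 contrasts, before 4 rose in the last. The shares of all genes that rose in the first pair of these contrasts were 22.1% and 18.2%, those that fell in the next 3 were 0.985%, 24.3% and 7.03%, and 40% rose in the last. Zscan4 and Usp17l genes have near-identical copies, and their counts are uncertain. *Dppa1*, which shares the name, did not exceed 2.07 CPM.

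Of 11 chromosomal neighbours of the members, 10 were tested between the gates, where 7 were higher in the positive gate and 1 was lower, beside 34.5% and 26.5% of all genes. *Gdf3*, a TGF-beta family ligand beside *Dppa3*, was higher by 5.15 on the log2 scale and *Morc1*, a germ cell chromatin protein beside *Dppa2*, by 4.97. *Eef1a1*, a translation factor near *Dppa5a*, was lower by 0.27. From E11.5 to E13.5 to E14.5 to E16.5, 4 of the 11 rose and 2 fell, where 22.1% of all genes rose and 16.2% fell. The 2 were *Nanog* and *Gdf3*, the latter with a stage mean that went from 139.5 to 39.3 CPM.

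Among 13936 genes with a mean of at least 20 CPM at some time-point, the 3 whose means over 26 time-points were most like each member were listed. For *Dppa2* they were *Ap3b2* (Pearson r = 0.95), *Syk* (r = 0.94) and *Lncenc1* (r = 0.93). For *Dppa3* they were *Fbxo42* (r = 0.96), *Epp13* (r = 0.94) and *Ifitm3* (r = 0.93), the last an interferon-induced membrane protein known from early germ cells. For *Dppa4* they were *Arhgap32*, *Platr17* and *Ehd3* (r = 0.93, 0.93 and 0.92), and for *Dppa5a* *Xrcc5*, *Chchd10* and *Ldhb* (r = 0.98, 0.96 and 0.96). *Xrcc5* encodes a subunit of the Ku DNA repair complex, and its mean did not drop under 25.2 CPM, while that of *Dppa5a* reached 1.19 CPM.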

How the data were processed

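Single cells of the male germline were profiled by STRT-seq. Per the methods of the study, UMI-tools read the tags and barcodes, STAR aligned the reads to mm10, and the authors then assigned uniquely aligned reads to genes with featureCounts, and deposited raw UMI counts per gene and cell, 31053 genes in 13032 cells. They kept cells with more than 2000 genes and 10000 to 1000000 UMIs. A table deposited by the authors gave time-point, gate, replicate and genotype for each cell, and 1136 Helq-null cells were not used.

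Counts were summed per time-point, replicate and gate. A pool needed at least 10 cells. The depth of a pool sets its counting error, and intervals and limits from a count of 0 (3 counts) cover counting error only. Pools were tested with edgeR 4.0.16 (TMM, quasi-likelihood, filterByExpr) at an adjusted p of 0.05. The stage fit had no block, and the gate and position fits had time-point and replicate as a block. The gates of a block came from the same digest, and the parts of a block from the same gonads. Replicate numbers of different time-points are not the same animals. Alternatives were RLE size factors, DESeq2 1.42.0, no filter, other cell selections and left-out pools. Scripts were tested on simulated data. The genes named were the members, the 3 genes most like each, and from each list the 2 with the largest change in each direction. The members and lists were chosen with earlier results of these data known.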

Additional observations from a re-analysis of the deposited data

Results flagged for a closer look

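At E7.5, 1 pool stood apart in *Dppa4*. The FACSrandom pool of replicate 3 held 57.4 CPM, and the nearest of the other 5 pools held 18.8 CPM, a gap of 0.673 of the whole range. The value rests on 1 of its 2 libraries, with 107.6 CPM in 48 cells, while the other held 12.9 CPM in 47 cells, below the 18.8 CPM of replicate 4. That other library also held all 47 cells of replicate 4, so these 2 replicates are not separate libraries. A gap of this size is found by chance in about 1 in 20 groups, and 8 groups were looked at. In this pool the visceral endoderm genes summed to 2515 CPM and the somatic genes to 1512 CPM, and their part in the level of *Dppa4* was not tested.

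The difference between the distal and the proximal part of the gonad had opposite signs in both replicates of some pairs of time-points. For *Dppa3* the mean log2 difference at E13.5 lay below that at E14.5 (-0.273) and below that at E15.5 (-0.277). For *Dppa4* it lay below that at E14.5 (-0.259). These are 3 of 24 pairs of time-points and genes looked at, and the difference between the time-points was not tested.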

How the results depend on the processing

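The stage contrasts of the members were recomputed under 14 alternative settings: 354 values kept direction and call, 30 lost the call, 2 gained it and 6 changed sign. Leaving out replicate 1 or replicate 2 of every time-point leaves 2 residual degrees of freedom, so most lost calls came with that construction. Over these fits *Dppa2* ranged from 2.02 to 2.77 between E8.5 to E10.5 and E11.5 to E13.5, where both adjusted p (0.450 and 0.05001, edgeR) missed the threshold. In the later contrasts, in order of time, it ranged from -2.14 to -2.05, from -1.53 to -1.40, from -1.32 to -0.77 (PND0 to PND2 against PND3 to PND7), from -2.95 to -1.92 and from -1.42 to -1.11. *Dppa3* ranged from -3.89 to -3.11 into E17.5 to E18.5, from -2.63 to -1.54 across birth, from -1.26 to 0.18 into PND3 to PND7, and from 2.04 to 2.11 into PND8 to PND14. *Dppa4* ranged from -1.13 to -1.06, from -1.06 to -0.95 and from -1.46 to -1.14 into E17.5 to E18.5, PND3 to PND7 and PND8 to PND14. *Dppa5a* ranged from 1.49 to 1.77 into E11.5 to E13.5, from -1.95 to -1.59 into E17.5 to E18.5 and from -1.04 to -0.61 into PND8 to PND14.

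Of the settings that keep replicates, those without the E17.5 pools ended the calls of *Dppa2* (-1.10) and *Dppa4* (-1.10) into E17.5 to E18.5 and of *Dppa3* across birth (-2.05). RLE size factors ended that of *Dppa4* into E17.5 to E18.5 (-0.77). Without the PND2 pool of replicate 1, *Dppa3* across birth gave -1.94 and was not called. Without the E8.5 pools *Dppa5a* into E11.5 to E13.5 gave 0.57 and was not called, and *Dppa2* across birth gave 1.24 and was called, as it was without the E8.5 pool of replicate 1 alone (1.24). With all picked cells *Dppa5a* into PND8 to PND14 gave -0.61. *Dppa4* across birth was -0.16 with RLE and with DESeq2, -0.0515 with all picked cells, -0.0555 with germ-marked cells alone and -0.00726 without the adult pool of replicate 1, and was never called. The cause was not tested. Peak times did not move, but as a mean of CPM over cells the mean stayed below 50% of its peak from PND1 and below 10% from PND7 for *Dppa4*, and below 10% from PND3 for *Dppa5a*, each 1 time-point earlier. Peak levels were then 167, 1310, 748 and 1907 CPM for *Dppa2*, *Dppa3*, *Dppa4* and *Dppa5a*, and 173 CPM for *Dppa2* in germ-marked cells alone.

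Between the gates, all 33 values of *Dppa2*, *Dppa4* and *Dppa5a* kept direction and call. Without the replicate block they were 5.26, 3.85 and 3.68, with 5043 genes higher and 4557 lower. By position, *Dppa2* was -0.0614 within E13.5, -0.0970 within E14.5 and -0.0782 to 0.18 with a replicate left out, and within E13.5 *Dppa3* was -0.14, *Dppa4* -0.0591 and *Dppa5a* -0.0496. Without the block, 0 genes were called by position, and the block changed no call of a member in either comparison.

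Counts of called genes moved by over 1.5 times in some settings. With all replicates kept, the lower calls ran from 1971 to 4211 into E17.5 to E18.5 (3904 as reported), the higher calls across birth from 464 to 1898 (1424) and the lower from 36 to 910 (262), the higher calls into PND3 to PND7 from 2436 to 4603 (4325; 4947 without the adult pool of replicate 1), the lower calls into PND8 to PND14 from 1012 to 2658 (1870), and the lower calls into E11.5 to E13.5 from 1489 to 3146 (2028). Between the gates the higher calls ran from 3401 to 8202 (5266), and by position from 0 to 12 higher and 0 to 26 lower. With pools left out, counts went as low as 95 higher and 61 lower into E11.5 to E13.5 and 0 and 0 across birth. Depth limits the low levels: shares of cells with a UMI moved in 212 of 312 values when 2 UMIs, thinning or other cells were used.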
